A study of Mus musculus with 6 samples.

Results

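The genes described here are those of the aminoacyl-tRNA synthetases and of the amino acid stress response in mouse paraxial mesoderm cultures. They were chosen by symbol from the annotation of the array: every symbol made of 1 capital letter and "ars", with or without a final 1 or 2, together with Eprs, Farsa and Farsb and 11 genes of the stress response (Atf4, Ddit3, Trib3, Chac1, Sesn2, Asns, Phgdh, Psat1, Psph, Shmt2 and Mthfd2). This gave 97 of the 45101 probe sets on the array, for 46 of 18193 named genes. Of the 46 genes, 19 encode cytosolic synthetases, 16 mitochondrial synthetases, 5 regulators of the stress response and 6 enzymes that make asparagine, serine and one-carbon units. Synthetases were grouped by symbol: those ending in ars2 were counted as mitochondrial and the rest as cytosolic, whether or not a gene also serves mitochondria. Each gene is represented by its brightest probe set over all arrays, and all 46 lay above the signal of 13.5 (the 40th percentile of all probe sets) below which genes were not tested.

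Expression was measured on 6 Affymetrix arrays, 3 from day 4 and 3 from day 3 of differentiation, each from 1 biological replicate. The day 4 and the day 3 cells were E14 embryonic stem cells on the 129P2/OlaHsd background that carried a Venus reporter of Msgn1. They were seeded on gelatin for the stated number of days in medium with 15% fetal bovine serum, 0.5% DMSO, 10 ng/mL R-spondin3 (an enhancer of Wnt signalling) and 200 ng/mL Noggin (an antagonist of BMP ligands), and Venus-positive cells were then sorted. Both days therefore share the reporter, the sort and every added factor, and no culture without the factors was analysed here. All samples come from a single reporter line, and the labels do not say whether it is 1 clone.

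Aminoacyl-tRNA synthetases attach each amino acid to its tRNA, and most amino acids have one enzyme for the cytosol and another for mitochondria. When amino acids run short, uncharged tRNA activates the kinase GCN2, which phosphorylates the translation factor eIF2, slows general translation and favours translation of the transcription factor ATF4. ATF4 then raises transcription of amino acid transporters, Asns, enzymes of serine synthesis and several cytosolic synthetases, and misfolded protein in the endoplasmic reticulum (ER) reaches ATF4 through another eIF2 kinase, PERK. Since ATF4 is controlled largely through translation, the level of its mRNA is only part of its regulation.

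ATF4 and its C/EBP partners bind a composite element, searched here as TGATGNAAN on both strands in RefSeq promoters of mouse build GRCm38.p6 that run from 250 bases before to 50 bases after the annotated start. A promoter was found for 37 of the 46 genes, and 8 of them (21.6%) held the element, against 4.5% of all 27025 genes with a promoter in the table. The 8 were Asns and Chac1, Iars, Aars, Gars, Tars and Yars, and Trib3. By group, the element was in 5 of 12 promoters of cytosolic synthetases, 0 of 14 of mitochondrial synthetases, 2 of 5 of the regulators and 1 of 6 of the enzymes. It was in 3 of 7 promoters of genes that were higher on day 4 (Asns, Chac1 and Iars), 0 of 2 of genes that were lower and 5 of 28 of genes that did not pass the test. Since the list holds genes described above as raised by ATF4, a share above that of all genes was likely beforehand, and the contrast was not tested. A match is a run of letters and not evidence of binding, and the start used in these cells may differ from the annotated one. The stretches around the copies that lie before the start are printed 5′ to 3′ on the gene's own strand, with the element in capitals, to show the copies in the 2 genes that rose beside those in 3 synthetase genes that did not pass.
Asns: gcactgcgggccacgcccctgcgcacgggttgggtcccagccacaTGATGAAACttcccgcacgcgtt
Chac1: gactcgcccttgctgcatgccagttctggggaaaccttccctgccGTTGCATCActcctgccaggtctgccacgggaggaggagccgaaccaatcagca
Aars: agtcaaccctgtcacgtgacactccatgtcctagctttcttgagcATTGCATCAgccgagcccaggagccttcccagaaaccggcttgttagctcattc
Gars: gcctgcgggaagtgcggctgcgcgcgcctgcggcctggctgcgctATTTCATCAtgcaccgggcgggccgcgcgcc
Tars: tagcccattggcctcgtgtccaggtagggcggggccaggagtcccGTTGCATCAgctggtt
The Asns stretch is chr6:7693210-7693277 on the minus strand and carries the element in the forward direction, 23 to 15 bases before the start. The Chac1 stretch is chr2:119351003-119351101 on the plus strand, with the element in reverse 194 to 186 bases before the start. The stretches of Aars (chr8:111033684-111033782, plus strand), Gars (chr6:55037925-55038000, plus strand) and Tars (chr15:11399659-11399719, minus strand) carry it in reverse, and their copies begin 113, 31 and 16 bases before the start. The copies of Iars, Yars and Trib3, and a further copy of Aars, lie within the first 22 transcribed bases and are not printed.

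The arrays had been scaled to a common level before deposit, with trimmed means of 160.4 to 162.1. Day 4 replicate 1 stood apart in control probe sets at either end of a transcript. The 3′ over the 5′ signal of Gapdh was 14.0 there and 2.43 to 3.19 elsewhere, and that of Actb was 6.71 there and 2.77 to 3.84 elsewhere. Day 4 replicate 1 was the lowest of the 6 arrays for 12 of the 46 genes and the highest for 15, or 26.1% and 32.6%, against 23.1% and 25.5% of all genes tested. Day 4 replicate 2 was the lowest for 6 and the highest for 13, or 13.0% and 28.3%, against 15.4% and 11.8%. All 8 presomitic mesoderm markers examined were above the filter, with 2 higher (Rspo3 and Mesp2), 1 lower and 5 that did not pass. The lower one was Msgn1, the gene of the reporter, at 25.2, 36.2 and 38.3 on day 4, against 83.0, 57.2 and 83.4 on day 3 (log2 change -1.17, adjusted p = 0.00723), and Tbx6 had a log2 change of -0.11 (adjusted p = 0.672). The summed signal of the 8 was 4877 to 5117 on day 4 and 3031 to 3233 on day 3, of which Rspo3 alone held 2403 to 2882 on day 4 and 1248 to 1319.6 on day 3. Markers of other cells moved too. The summed signal of 8 cardiac and lateral plate markers was 1802 to 2073 on day 4 and 1147 to 1167 on day 3, with 3 of 8 higher and 0 lower. That of 8 undifferentiated stem cell markers was 6031 to 6245 on day 4 and 7655 to 8024 on day 3, with 0 higher and 4 lower. That of 10 endoderm markers was 589 to 687 on day 4 and 767 to 821 on day 3, with 1 of 8 tested higher, 3 lower, and Afp and Ttr under the filter. That of 8 endothelial and blood markers was 670 to 909 on day 4 and 644 to 669 on day 3, with 1 of 5 tested higher, 1 lower, and Pecam1, Tek and Tal1 under the filter. That of 8 neural markers was 363 to 399 on day 4 and 403 to 453 on day 3, with 0 of 5 tested higher, 1 lower, and Sox1, Neurog2 and Tubb3 under the filter. Single genes held much of some of these sums. The day 3 mean was 6279 for the brightest stem cell marker, 394 for Gata6 of the endoderm markers and 649 for Mesp1 of the cardiac markers. The part of all these markers in the results was not tested. In these bulk samples fewer cells of a type and less RNA per cell cannot be told apart.

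Of the 46 genes, 8 were higher on day 4 than on day 3 and 3 were lower by limma's moderated test at an adjusted p under 0.05. Those that rose were Chac1, Asns and Psph of the stress response and the synthetase genes Sars, Fars2, Qars, Iars and Lars, and those that fell were Rars, Yars2 and Mars2. The shares, 17.4% higher and 6.52% lower, stand beside 11.5% higher and 10.7% lower among all 12285 genes tested, and the 23.9% that changed in either direction stand beside 22.2%. The median log2 change was 0.09, within a range of -1.12 to 1.86, and that of all genes tested was -0.01. The 3 values of day 4 lay all above those of day 3 for 17 of the 46 genes and all below for 6, where 20.7% and 20.6% of all genes tested did so. Without day 4 replicate 1, 12 genes were higher and 6 lower, against 14.2% and 14.5% of all genes, and 10 of the 11 calls were kept. Across the 6 fits that each left out 1 array, 6 calls held throughout: Chac1, Asns, Sars, Fars2, Iars and Rars.

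**Figure D1:**
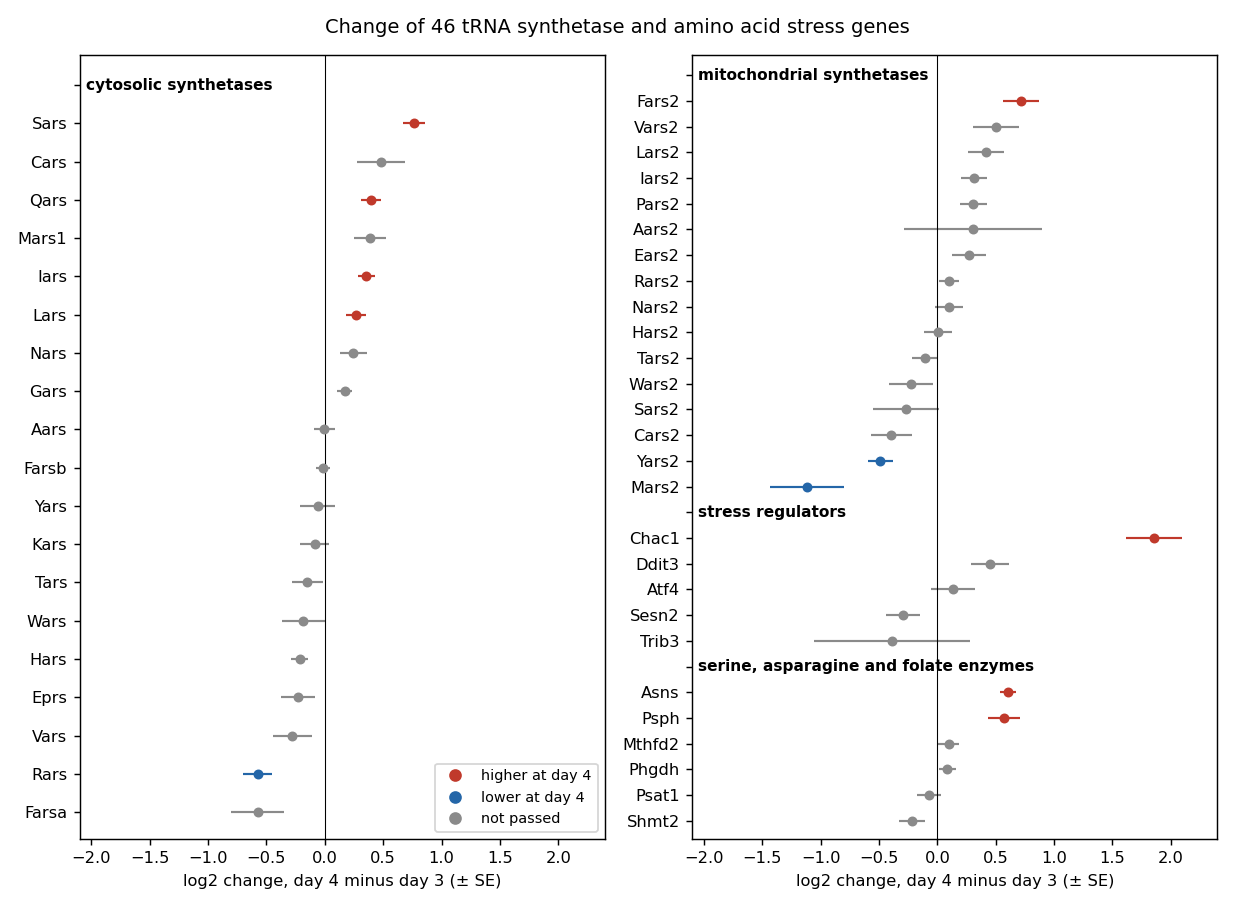
Log2 change of each of the 46 genes, day 4 minus day 3, in 4 groups by role, with bars for the standard error of the fit. Chac1 lies furthest to the right at 1.86 and Mars2 furthest to the left at -1.12, and both synthetase groups spread to either side of 0.

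Among the 5 regulators, 1 was higher and 0 lower, where 11.5% and 10.7% of all genes tested were. Their median log2 change was 0.14. Chac1, a target of the ATF4 pathway that encodes an enzyme degrading glutathione, had signals of 60.04, 95.0 and 80.2 on day 4, against 21.7, 17.7 and 25.1 on day 3. The lowest day 4 array was well above the highest day 3 array in the plot of signals, and the log2 change was 1.86 ± 0.24 (SE, n = 3 a day; limma adjusted p = 0.000765), or 3.62-fold. Chac1 kept its call in each fit that left out 1 array.

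Atf4 itself, the transcription factor at the centre of the response, had signals of 1173, 1954 and 1954 on day 4, against 1269, 1681 and 1586 on day 3. Replicate 1 was the lowest array of each day, the days overlapped, and the log2 change of 0.14 ± 0.19 (SE) did not pass the test (adjusted p = 0.653). Without day 4 replicate 1 it was 0.38 with an adjusted p of 0.019. Replicate 1 was also the lowest day 4 array in a second Atf4 probe set, at 574, 997 and 1054, against 803, 799 and 818 on day 3, with a log2 change of 0.067 (adjusted p = 0.849). Ddit3, which encodes CHOP, the factor that drives cell death under prolonged stress, had signals of 64.4, 58.5 and 58.4 on day 4, against 44.6, 41.3 and 46.9 on day 3. All day 4 arrays were above all day 3 arrays, but the log2 change of 0.45 ± 0.16 had an adjusted p of 0.0803. Sesn2, a stress-induced inhibitor of mTORC1 that senses leucine, had signals of 626, 435 and 422 on day 4, against 610.5, 563 and 617 on day 3. Its highest value of all was day 4 replicate 1, while the other day 4 arrays lay below every day 3 array. The log2 change of -0.30 ± 0.15 (adjusted p = 0.181) became -0.48 with an adjusted p of 0.00179 without day 4 replicate 1. In a second Sesn2 probe set that array was instead the lowest, at 13.0, 56.6 and 74.1 on day 4, against 86.1, 63.2 and 92.7 on day 3. The log2 change there was -1.07 (adjusted p = 0.213). Trib3, a pseudokinase that acts in feedback on ATF4, scattered most, at 35.8, 50.8 and 6.91 on day 4, against 45.9, 33.1 and 18.5 on day 3. One day 4 value lay under the filter level, and the log2 change of -0.39 ± 0.67 did not pass (adjusted p = 0.721).

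Of the 6 enzymes, 2 were higher and 0 lower, where 11.5% and 10.7% of all genes tested were. Their median log2 change was 0.09. Asns, asparagine synthetase, had signals of 2011, 2204 and 2129.8 on day 4, against 1361, 1388 and 1413 on day 3. The days were far apart relative to their spread, with a log2 change of 0.61 ± 0.07 (adjusted p = 0.000372), and a second probe set, at 1799, 1997 and 1864 on day 4 and 1246, 1224 and 1305 on day 3, gave 0.58 (adjusted p = 0.00124). The last step of serine synthesis is catalysed by the product of Psph, which had signals of 352, 288 and 316 on day 4, against 252, 208 and 186 on day 3. No value overlapped, and its log2 change was 0.57 ± 0.14 (adjusted p = 0.0162), but the call was lost without day 3 replicate 2 (0.0624) or 3 (0.0753).

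The other two enzymes of the serine pathway did not pass. Phgdh, the first enzyme, had signals of 1178, 1138 and 1130.3 on day 4, against 1105, 1075 and 1070.0 on day 3: all day 4 values were above all day 3 values, by a log2 change of only 0.08 ± 0.07 (adjusted p = 0.431). Psat1, the second enzyme, had signals of 2089, 2791 and 2592 on day 4, against 2461, 2726 and 2611 on day 3. Its values overlapped, with a log2 change of -0.07 ± 0.10 (adjusted p = 0.666). The mitochondrial folate enzymes also overlapped. Shmt2, which splits serine into glycine and a one-carbon unit, had signals of 984, 959 and 799 on day 4, against 1180.2, 1048 and 950.0 on day 3, a log2 change of -0.21 ± 0.11 (adjusted p = 0.2). Mthfd2, which oxidises that unit, had signals of 535, 564 and 519 on day 4, against 523, 473 and 517 on day 3, a log2 change of 0.10 ± 0.09 (adjusted p = 0.476).

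**Figure D2:**
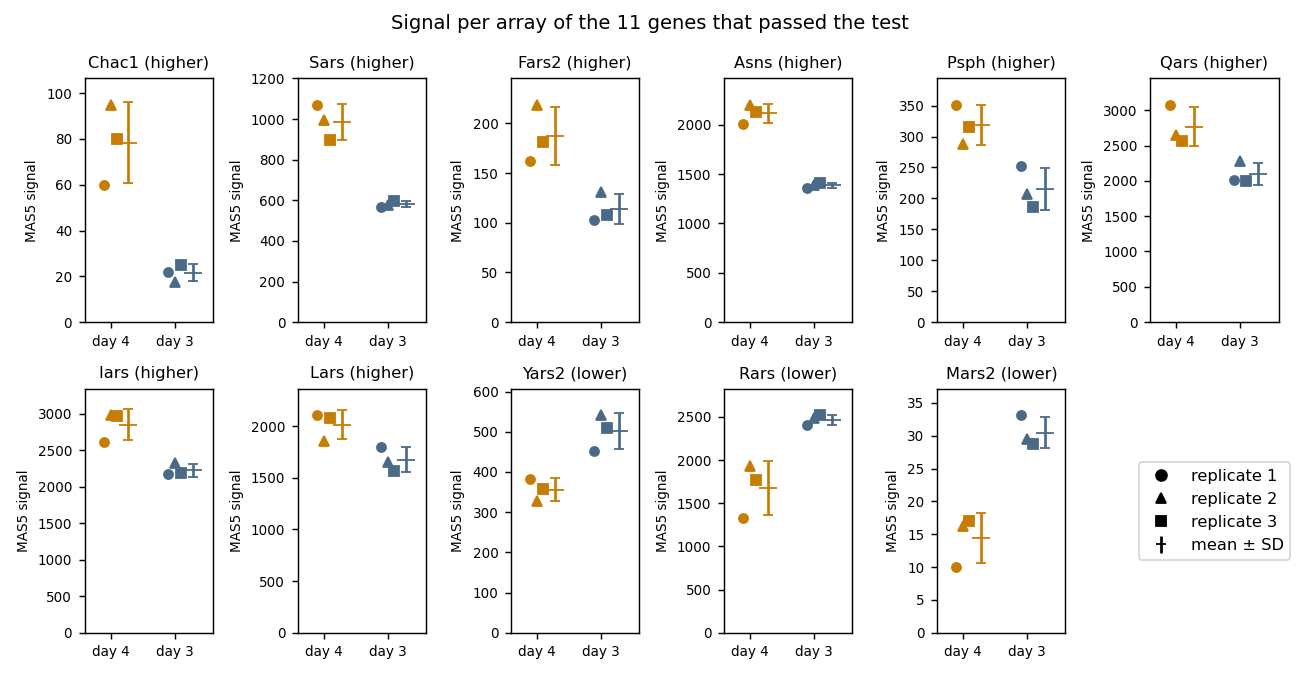
Deposited signal on each array for the 11 genes that passed the test, with the 3 day 4 arrays left of the 3 day 3 arrays in each panel and bars for the mean ± SD of each day. The values of the days do not overlap for any of the 11, and the day 3 arrays lie higher only for Rars, Yars2 and Mars2. The 11 were picked by a test on these same values, so the lack of overlap is not separate support. Among all genes tested, day 4 lay all above day 3 for 20.7% and all below for 20.6%.

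Among the 19 cytosolic synthetases, 4 were higher and 1 lower (21.1% and 5.26%), beside 11.5% and 10.7% of all genes tested. The median log2 change was -0.02. The 4 that rose charge serine, glutamine, isoleucine and leucine, and the 1 that fell charges arginine. Sars (serine) had signals of 1071, 995 and 894 on day 4, against 568, 575 and 596 on day 3. Every day 4 array was well above every day 3 array, and the log2 change was 0.76 ± 0.09 (adjusted p = 0.000534). Its other tested probe set, at 957, 957 and 825 on day 4 and 634, 606 and 571 on day 3, gave 0.59 (adjusted p = 0.00354), though Sars has no probe set without a suffix for shared or alternative transcripts.

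Qars (glutamine) had signals of 3081, 2647 and 2567 on day 4, against 2018, 2278 and 1998 on day 3. The days did not overlap, the log2 change was 0.40 ± 0.09 (adjusted p = 0.0112), and the call was lost without day 3 replicate 3 (0.0585). Iars (isoleucine) had signals of 2610.2, 2981 and 2971 on day 4, against 2169.8, 2331 and 2185 on day 3, a log2 change of 0.36 ± 0.07 (adjusted p = 0.00833). It kept its call in each fit without 1 array, but its other tested probe set gave only 0.09 (adjusted p = 0.802). Lars (leucine) had signals of 2105, 1851 and 2081 on day 4, against 1802, 1656 and 1561 on day 3. The change was the smallest of the 11 calls, 0.27 ± 0.08 on the log2 scale, with an adjusted p of 0.0461 that exceeded the threshold without day 3 replicate 2, day 3 replicate 3 or day 4 replicate 3, to at most 0.18.

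Rars (arginine) had signals of 1332, 1934 and 1764 on day 4, against 2403, 2482 and 2519 on day 3. The day 3 arrays lay close together and above every day 4 array, and the log2 change was -0.57 ± 0.12 (adjusted p = 0.00913). Farsb, a subunit of the phenylalanine enzyme, was the brightest cytosolic gene at 3062, 3275 and 3211 on day 4 and 3289, 3259 and 3111 on day 3, with a log2 change of -0.02 (adjusted p = 0.873). The dimmest, Cars (cysteine), had signals of 153, 234 and 240.1 on day 4, against 176, 153 and 117 on day 3, and its log2 change of 0.48 ± 0.21 had an adjusted p of 0.125. The other 12 cytosolic genes did not pass, with log2 changes between -0.58 for Farsa and 0.39 for Mars1.

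Without day 4 replicate 1, 7 of the 19 cytosolic genes were higher and 4 lower, where 14.2% and 14.5% of all genes tested were. The added calls were Cars, Gars (glycine) and Nars (asparagine) above and Farsa, Hars (histidine) and Wars (tryptophan) below. Gars had signals of 2106, 2224 and 2187 on day 4, against 1951, 1911 and 1925 on day 3, and a log2 change of 0.17 ± 0.06 (adjusted p = 0.0799, and 0.0254 without that array). Hars had signals of 2447, 2272 and 2110.0 on day 4, against 2719, 2539 and 2653 on day 3, and a log2 change of -0.21 ± 0.07 (adjusted p = 0.0633, and 0.00765 without that array).

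Among the 16 mitochondrial synthetases, 1 was higher and 2 lower (6.25% and 12.5%), beside 11.5% and 10.7% of all genes tested. Their median log2 change was 0.10. Fars2 (mitochondrial phenylalanine) had signals of 162, 219 and 181 on day 4, against 102, 131 and 108 on day 3. The log2 change was 0.72 ± 0.15 (adjusted p = 0.00937), and a second probe set, at 69.7, 78.2 and 88.9 on day 4 and 51.2, 58.5 and 63.2 on day 3, gave 0.45 (adjusted p = 0.0941). Yars2 (mitochondrial tyrosine) had signals of 383, 328 and 357 on day 4, against 453, 541 and 509 on day 3. The log2 change was -0.49 ± 0.11 (adjusted p = 0.0106). A second Yars2 probe set gave -0.59 (adjusted p = 0.00909), while the call was lost without day 3 replicate 2 (0.0535) or 3 (0.0526). Mars2 (mitochondrial methionine) had the dimmest signals of the group, at 10.0, 16.2 and 17.0 on day 4, against 33.1, 29.5 and 28.8 on day 3. The log2 change of -1.12 ± 0.32 (adjusted p = 0.0313) rests on day 4 values near or under the filter level of 13.5 and was lost in 5 of the 6 fits without 1 array, with adjusted p of at most 0.0985; day 4 replicate 3 was the array whose removal kept it. Rars2 (mitochondrial arginine), the brightest of the group, had signals of 659.6, 708 and 679 on day 4, against 675, 643 and 596 on day 3, and a log2 change of 0.10 ± 0.09 (adjusted p = 0.457).

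For 13 amino acids a single cytosolic gene could be set beside a single mitochondrial gene. Only the cytosolic gene passed the test for 4 of them (isoleucine, leucine, serine and arginine), only the mitochondrial gene for 2 (methionine and tyrosine), both for 0 and neither for 7. Of all genes tested, 22.2% passed in either direction. For serine the log2 change was 0.76 in Sars and -0.27 in Sars2, and for arginine -0.57 in Rars and 0.10 in Rars2. For leucine both were above 0, at 0.27 in Lars and 0.42 in Lars2 (adjusted p = 0.0832), and for isoleucine likewise, at 0.36 in Iars and 0.31 in Iars2 (adjusted p = 0.0721). For methionine they were 0.39 in Mars1 (adjusted p = 0.0723) and -1.12 in Mars2. The difference within a pair was not tested. Phenylalanine is not among the 13, since its cytosolic enzyme is made of the products of Farsa and Farsb, neither of which passed while Fars2 was higher. Glutamate and proline are not either, since Eprs serves both in the cytosol, and Eprs, Ears2 and Pars2 did not pass.

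Several cytosolic synthetases are held together in the multisynthetase complex, a grouping made here after the values had been seen. Of the 7 genes of the complex described here, Iars, Lars and Qars were higher, Rars was lower, and Eprs, Mars1 and Kars did not pass, with a median log2 change of 0.27. Its scaffold and the partners of tRNA charging formed another list, in which 1 of 15 genes was higher and 1 lower. Among all genes tested, 11.5% were higher and 10.7% lower. Aimp2, a scaffold subunit, fell to a mean signal of 1057 ± 62.4 on day 4, against 1528 ± 79.0 on day 3 (SD, n = 3 each), a log2 change of -0.53 (adjusted p = 0.00172). Gtpbp2, which helps rescue stalled ribosomes, had a mean of 245 ± 50.04 on day 4 and 142 ± 16.7 on day 3, a log2 change of 0.77 (adjusted p = 0.0081).

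Of the 97 probe sets, 88 passed the filter and 9 did not. Tested one by one, 11 were higher, 4 lower and 73 did not pass, where 9.67% and 8.53% of all 22276 probe sets tested were higher and lower. Among genes with at least 2 tested probe sets, the signs of the changes were the same for 17 and mixed for 11, and 0 genes had calls in opposite directions. Qars had 3 tested probe sets, of which the second gave 0.26 (adjusted p = 0.0324) and the third -0.01. Nars did not pass with its brightest probe set (0.24 ± 0.12, adjusted p = 0.167), but a second one, at 2072, 1857 and 2037 on day 4 and 1738, 1582 and 1566 on day 3, gave 0.29 (adjusted p = 0.0332). The genes with mixed signs were Qars, Eprs, Farsa, Ears2, Iars2, Lars2, Tars2, Wars2, Mthfd2, Phgdh and Shmt2, and apart from those of Qars 0 of their probe sets passed. Lars2 gave a log2 change of 0.42 with its brightest probe set and -0.56 with the other one tested. Farsa gave -0.58 with its brightest and 0.043, 0.12 and 0.60 with 3 dimmer ones, and Shmt2 gave -0.21 with its brightest and 0.69 with its dimmest.

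**Figure D3:**
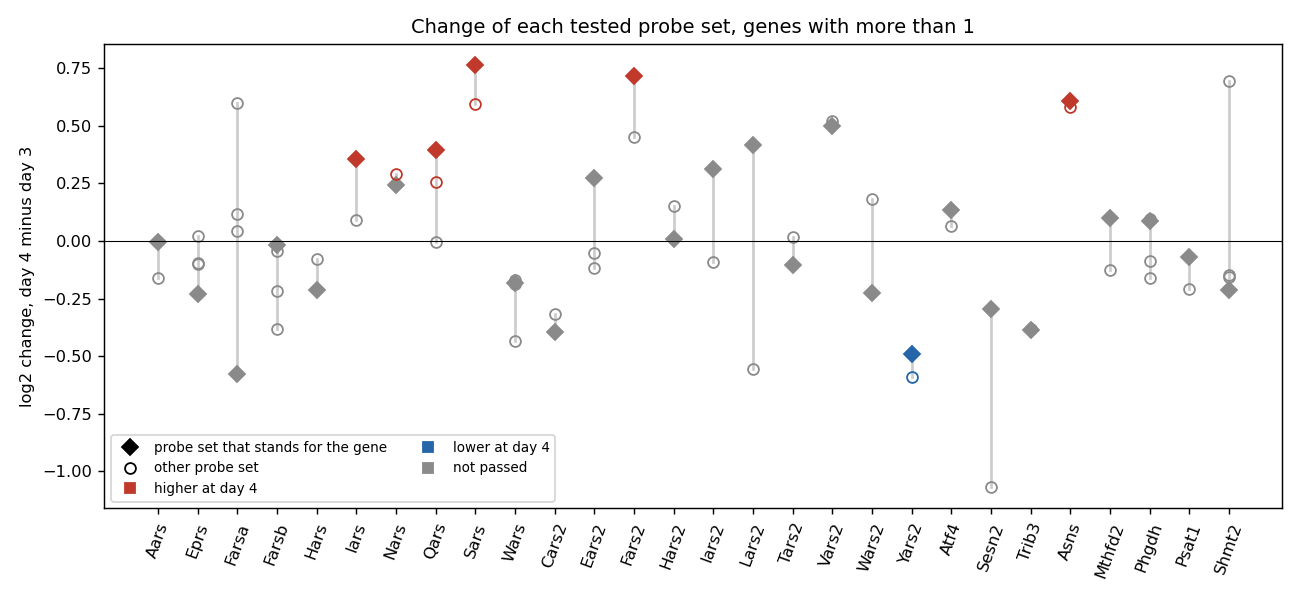
Log2 change, day 4 minus day 3, of every tested probe set of the genes that have more than 1 tested probe set. Filled diamonds are the brightest probe set of a gene, open circles the others, and colour marks those that passed. The probe sets of Asns, of Sars and of Yars2 lie close together, and those of Iars and Qars are spread between about 0 and their highest value.

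Other genes of the same pathways changed in both directions. Of 32 tested eIF2 kinases, their regulators and other ATF4 pathway genes, 5 were higher and 7 lower (15.6% and 21.9%), with a median log2 change of -0.05. Cth, which makes cysteine from cystathionine, fell to a mean signal of 430.0 ± 5.5 on day 4, against 1208 ± 66.8 on day 3 (SD, n = 3 each), a log2 change of -1.49 (adjusted p = 9.26e-06). Atf3, a stress-induced transcription factor, fell to 53.9 ± 5.42 on day 4, against 143 ± 20.2 on day 3, a log2 change of -1.40 (adjusted p = 0.00037). In the other direction, Aldh18a1, an enzyme of proline synthesis, had a mean of 773 ± 27.2 on day 4 and 423 ± 10.48 on day 3, a log2 change of 0.87 (adjusted p = 0.000171). Vldlr, a lipoprotein receptor gene, had 1294 ± 89.1 on day 4 and 720.1 ± 47.3 on day 3, a log2 change of 0.85 (adjusted p = 0.000241). Eif2ak4, which encodes GCN2 and was picked out after its values had been seen, had 279 ± 44.4 on day 4 and 179 ± 13.8 on day 3, a log2 change of 0.63 (adjusted p = 0.00945). The other eIF2 kinase genes did not follow it. Eif2ak1 was lower, with a log2 change of -0.68 (adjusted p = 0.0251). Eif2ak3, which encodes PERK (0.32, adjusted p = 0.19), and Eif2ak2 (-0.03, adjusted p = 0.924) did not pass.

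Of 16 other tested genes of serine, glycine and folate metabolism, 1 was higher and 5 lower (6.25% and 31.2%), with a median log2 change of -0.18. Gldc, which cleaves glycine in mitochondria, fell to a mean signal of 84.6 ± 7.59 on day 4, against 260.3 ± 50.6 on day 3 (SD, n = 3 each), a log2 change of -1.61 (adjusted p = 0.000205). Mthfd1, the cytosolic folate enzyme, fell by 0.44 on the log2 scale (adjusted p = 0.00485), and Ahcy, which hydrolyses S-adenosylhomocysteine, fell by 0.30 (adjusted p = 0.0186). The call of Ahcy was lost without day 3 replicate 1, day 3 replicate 3 or day 4 replicate 2, with adjusted p of 0.0511 to 0.0764. Tyms, thymidylate synthase, had a log2 change of 0.98 (adjusted p = 0.0102).

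The unfolded protein response of the ER reaches ATF4 through PERK, where the amino acid response uses GCN2. Its genes and the ER chaperones had the highest share of lower genes among the 4 neighbouring lists. Of 20 tested, 0 were higher and 13 lower (65.0%), beside 10.7% lower among all genes, and the median log2 change was -0.47. The count was also 13 without day 4 replicate 1. Dnajb11, an ER co-chaperone, fell to a mean of 322 ± 14.3 on day 4, against 695 ± 32.5 on day 3 (SD, n = 3 each), a log2 change of -1.11 (adjusted p = 7.07e-05). Creld2, induced under ER stress, fell to 324 ± 13.9 on day 4, against 680.0 ± 5.64 on day 3, a log2 change of -1.07 (adjusted p = 6.96e-05). Pdia3, a disulfide isomerase, fell by 0.80 (adjusted p = 0.00031) and Calr, the lectin chaperone calreticulin, by 0.52 (adjusted p = 0.000416) on the log2 scale.

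**Figure D4:**
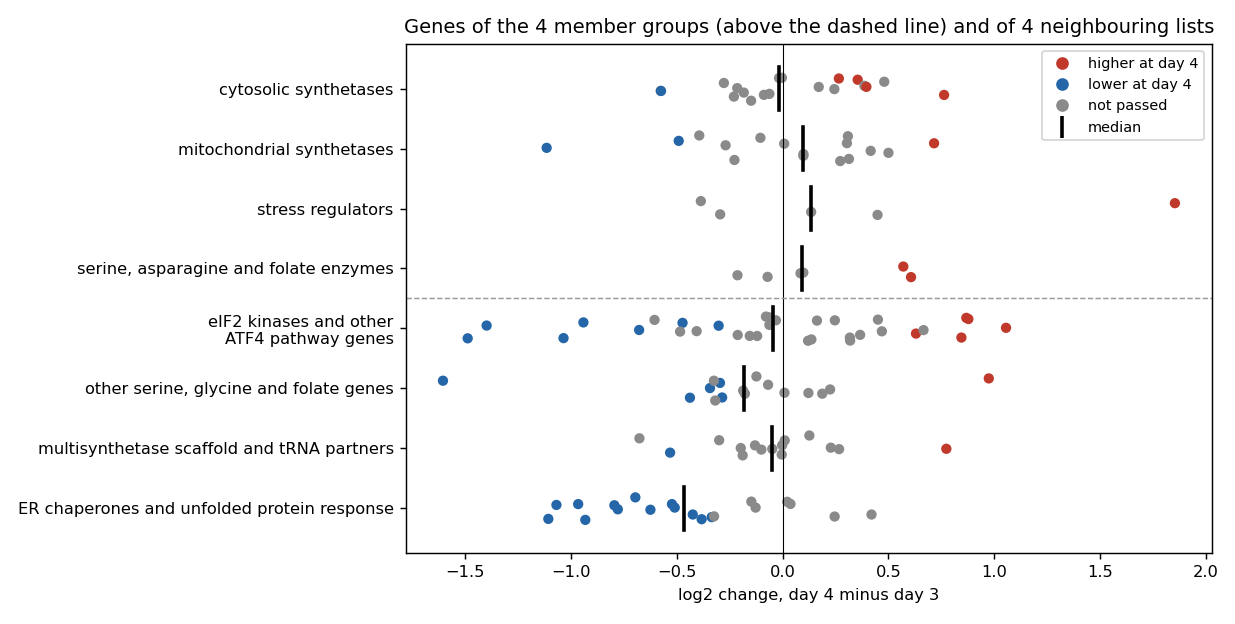
Log2 change, day 4 minus day 3, of each tested gene in the 4 groups of synthetase and stress genes (above the dashed line) and in the 4 neighbouring lists (below it). The ER chaperone list lies mostly left of 0, with a median of -0.47, and the 4 groups above the line have medians between -0.02 and 0.14.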

How the data were processed

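Total RNA of sorted cells, extracted with Trizol or an RNeasy kit (the labels do not say which for which sample), was amplified in 2 rounds and hybridised to 1 array per sample. The deposited values are linear MAS5 signal intensities, per the submitters' processing notes and the values; the scaling target is not given in the sources used here, and detection calls were not used. Double amplification weighs transcripts toward their 3′ ends, and dim MAS5 intensities scatter widely on a log scale. Levels of different probe sets are not comparable, and the number of arrays limits the precision.

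Of the probe sets, 34945 had 1 gene symbol in the platform annotation, 932 had several and were left unnamed, 9160 were not listed and 64 were controls. In R 4.3.3 with limma 3.58.1, log2 signal was fitted with day as the only term (lmFit, eBayes with trend, 2-sided), with Benjamini-Hochberg adjustment over the 12285 genes tested. Changes are day 4 minus day 3. The model was also run on simulated arrays with independent normal errors of the same spread on both days. That setting leaves out the unequal spread of the days and the departure of day 4 replicate 1. Replicates are biological per the labels.

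The genes, the lists and the motif were chosen with earlier results of these data known. Named were all genes past the threshold, the 11 stress genes, the brightest and dimmest of a group, and genes whose probe sets disagree. Up to 4 genes of each neighbouring list with the smallest p were also named. Gars, Hars, the eIF2 kinase genes and the pairs of synthetases were added after their values had been seen. The alternatives were an added offset, quantile normalization, median centring, no filter, a 60th percentile filter, the mean over probe sets, no suffixed probe sets, array quality weights, eBayes without trend, a replicate block and leaving out each array. Promoters are from RefSeq. No build is named for the array.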

Additional observations from a re-analysis of the deposited data

How the results depend on the processing

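All genes called came to 2729, and the count kept within 1.5 times under 8 of the 10 settings other than leaving out an array; it was 1796 with the mean over probe sets and 4312 with array quality weights. Array quality weights also gave 14 higher and 8 lower among the 46 genes (8 and 4 cytosolic, 3 higher mitochondrial, 1 lower regulator). Leaving out suffixed probe sets gave 4 higher (1 cytosolic, 0 mitochondrial). Sars, Qars, Fars2 and Yars2 were not tested in that setting, for want of an unsuffixed probe set above the filter. Higher cytosolic genes were 2 with the mean over probe sets and 1 without trend, which also left 0 lower. Lower mitochondrial genes were 1 with no filter, the 60th percentile filter, the mean over probe sets, or no suffixed probe sets. Higher regulators were 0 with the 60th percentile filter, since Chac1 was then not tested, and 2 without trend, where Ddit3 passed. Leaving out each array gave 1582 to 3530 called genes, 5 to 12 higher and 1 to 6 lower among the 46, 2 to 7 higher and 1 to 4 lower cytosolic, 1 to 2 higher and 0 to 2 lower mitochondrial, 1 to 2 higher and 0 to 1 lower regulators, and 1 to 2 higher enzymes. ER genes called lower numbered 9 to 13 over the 16 settings. Beyond the calls lost without an array, Qars, Iars, Lars and Mars2 lost theirs with the mean over probe sets (adjusted p = 0.0945, 0.298, 0.056 and 0.214), Lars with median centring (0.0991), Lars and Mars2 with no filter (0.0695 and 0.0693), and Qars, Iars, Lars, Rars and Ahcy without trend (0.063, 0.0556, 0.133, 0.0519 and 0.0979). Without suffixed probe sets Iars (0.792), Aldh18a1 (0.19) and Gtpbp2 (0.0569) lost theirs, and Eif2ak4 did with the mean over probe sets (0.146). Signs turned, in genes that did not pass, with the mean over probe sets for Atf4 (-0.099), Mthfd2 (-0.014), Phgdh (-0.017), Shmt2 (0.044), Lars2 (-0.17) and Farsa (0.046, and 0.043 without suffixed probe sets), with weights for Psat1 (0.025), Sars2 (0.11) and Farsb (0.020, and 0.035 with quantile normalization), and among the fits without 1 array for Psat1 (-0.16 to 0.051), Sars2 (-0.54 to 0.029) and Farsb (-0.041 to 0.011), all above 0 without day 4 replicate 1, and Trib3 (-0.95 to 0.49, above 0 without day 4 replicate 3). Aars, Kars, Tars, Yars, Aars2 and Hars2, which did not pass either, also changed sign among the fits without 1 array. Median centring moved the median change of all genes by -0.033 and quantile normalization by -0.015. These causes were not tested.

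A replicate block gave 10 higher and 4 lower among the 46 genes, 5 higher and 3 lower cytosolic, and 2 higher and 1 lower mitochondrial, and moved the call of Mars2 to an adjusted p of 0.0517. Correlations of same-numbered deviations were 0.067, 0.011 and -0.0005, too near 0 to show whether the numbers pair the samples. Day 4 replicate 1 correlated best with day 3 replicate 1 (0.067) and day 4 replicate 3 with day 3 replicate 2 (0.070). Day 4 replicate 2 gave nearly equal values with day 3 replicate 3 (0.0115) and day 3 replicate 2 (0.0110).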

Other observations

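Synthetases fall into 2 structural classes that differ in the fold of the catalytic domain, a grouping made after the values had been seen. Of 18 class I genes, 3 were higher on day 4 and 3 lower, and of 16 class II genes 2 were higher and 0 lower, with Eprs, which holds an enzyme of each class, left out. Among all genes tested, 11.5% were higher and 10.7% lower. The difference between the classes was not tested.

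The spread between replicates differed between the days. The median within-day SD of log2 signal over the 46 genes was 0.194 on day 4 and 0.092 on day 3, against 0.184 and 0.138 over all genes tested. Day 4 replicate 1 lay a median of 0.268 from the mean of the other two day 4 arrays for the 46 genes, against 0.237 for all genes tested. The same distance was 0.195 against 0.152 for day 4 replicate 2, and 0.155 against 0.165 for day 4 replicate 3.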
